A study of Homo sapiens with 4 samples.

Results

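The transcripts described here encode the machinery of another methylated adenosine, N6-methyladenosine (m6A): the writer subunits METTL14 and WTAP, the erasers FTO and ALKBH5, and the YTH readers YTHDC1, YTHDC2, YTHDF2 and YTHDF3. They were chosen by gene symbol and make up 8 of the 6434 genes in the deposited gene table. The study pulled transcripts carrying N1-methyladenosine (m1A) out of poly(A)-selected RNA with an antibody and measured the RNA left behind on Affymetrix arrays. The supernatant group (immunodepleted, n = 2) was set against the input group (not treated, n = 2), both labelled as HepG2, a human liver tumour line. Nothing in the labels says whether the 2 samples of a group came from separate cultures, so the p-values reflect only how these samples scatter, and that scatter may be technical.

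m6A is laid down in the nucleus by a complex in which METTL3 carries the catalytic site, METTL14 helps bind RNA, and WTAP holds the complex together. FTO and ALKBH5 can remove the mark by oxidation, and proteins with a YTH domain bind it and act on splicing, export, translation or decay of the RNA. The same proteins touch on m1A as well, since FTO can also remove m1A from tRNA and some YTH proteins have been reported to bind it. The question here is whether their own transcripts were carried away by the m1A antibody.

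The gene table splits its genes into 5210 that have 1 m1A peak, called one-peak genes here, and 1224 that have none, called non-m1A genes. It gives each gene a linear intensity in 2 supernatant and 2 input columns, lettered A and B. The letters are not tied to the replicate numbers of the labels, and no column names a cell line. Of 18 hepatocyte markers, 2 were in the table, APOE and FOXA1, with summed intensities of 115 to 152 in the supernatants and 118 to 159 in the inputs. Of 7 markers of mesenchymal or squamous lines, 6 were present, with sums of 11708 to 11793 in the supernatants and 12025 to 12038 in the inputs. Most of these sums came from VIM and LGALS1, with input means of 6210 and 3957. The lowest input mean of the 6 was 158, in CDH2. Of 5 epithelial markers, 2 were present, the keratin genes KRT8 and KRT18, with sums of 6191 to 7516 in the supernatants and 5927 to 7633 in the inputs. The table lists only genes with a single peak or none, so a marker's absence from it does not show absence from the cells, and what these levels mean for the labelled line was not tested.

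The m6A genes fell on both sides of the split. WTAP, FTO, YTHDC1, YTHDF2 and YTHDF3 were one-peak genes, while METTL14, ALKBH5 and YTHDC2 were non-m1A genes. Each role therefore had a member in each block. All 8 were at least as bright as the dimmest one-peak gene (mean intensity 36.1), with mean intensities of 61.6 to 491. Intensities of different genes come from different probes and are not ranked against each other.

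None of the 8 transcripts passed the test of supernatant against input, which was run with limma across all 6434 genes (Benjamini-Hochberg adjusted p under 0.05). The share of all genes called was 0.0155%, or 1 gene, so 0 of 8 is no result about these genes. At an unadjusted p under 0.05 the test picked 1 of the 8, YTHDC2, and 2.02% of all genes. The log2 changes ran from -0.13 in METTL14 to 0.26 in YTHDC2, with a median of 0.0066 against 0.04 over all genes, and 4 were above 0 and 4 below. With each column recentred on the median of the non-m1A genes, FTO (-0.051) and YTHDC1 (-0.0033) also lay below 0.

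**Figure D1:**
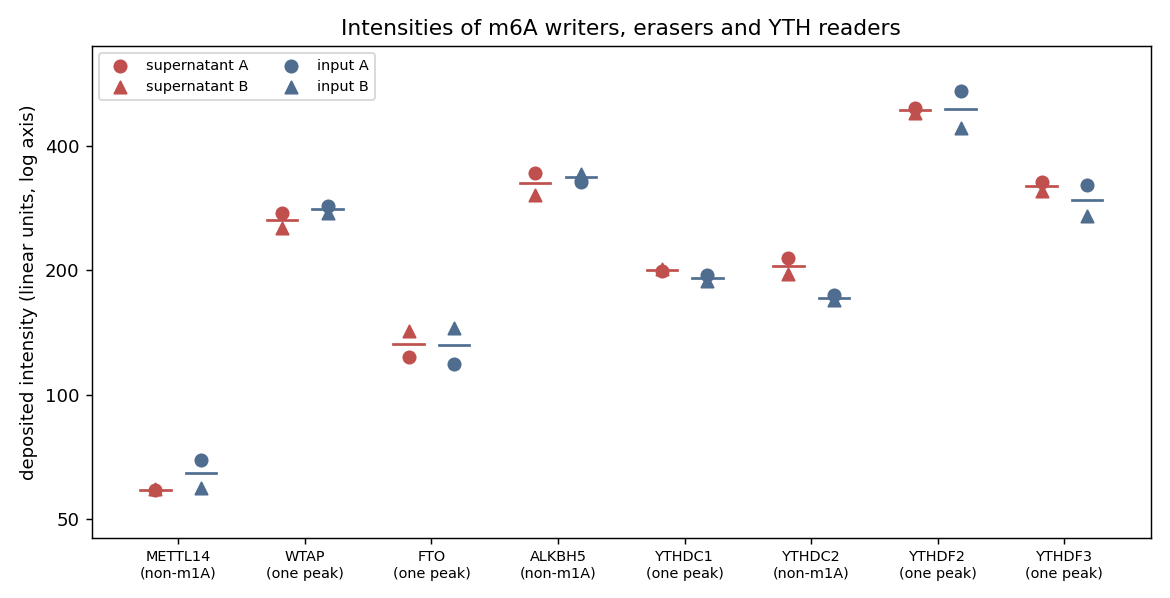
Deposited intensity (linear units, log axis) of the 8 transcripts in each supernatant (red) and input (blue) column, with circles for the A columns, triangles for the B columns and a bar at each group's mean. Both supernatant values lie above both inputs in YTHDC2 (214 and 196 against 174 and 169) and, by less, in YTHDC1, and below both inputs in METTL14.

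The 2 writer transcripts had the lowest changes of the 8. METTL14, the RNA-binding partner of the catalytic subunit, had intensities of 58.7 and 58.9 in supernatants A and B, against 69.3 and 59.5 in inputs A and B. Both supernatants were lower than both inputs, but input A alone stood apart from the other 3 columns. The log2 change came to -0.13 ± 0.11 (SE, limma adjusted p = 1.00), to -0.017 without input A and to -0.24 without input B. After recentring it was -0.19. The 95% interval as deposited reached from 0.745-fold to 1.13-fold, so that a loss of up to 25.5% lies within it. Its lower end was 0.723-fold after recentring and 0.720-fold after quantile normalization.

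WTAP, the regulatory subunit that places the complex in nuclear speckles, had intensities of 276.2 and 253 in supernatants A and B, against 287 and 275.8 in inputs A and B. The groups overlapped, by the margin between 276.2 in supernatant A and 275.8 in input B. Each supernatant was nonetheless lower than the input of its own letter, with supernatant/input ratios of 0.963 and 0.918 for letters A and B. The change on the log2 scale was -0.09 ± 0.10 (SE, limma adjusted p = 1.00), with a 95% interval from 0.788-fold to 1.12-fold. After recentring it was -0.16, with an interval from 0.751-fold to 1.07-fold.

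Neither eraser kept a direction between the pairs. FTO, the first m6A demethylase described and a gene of the AlkB family, had intensities of 123 and 142 in supernatants A and B, against 119 and 145 in inputs A and B. The letter set its columns apart: on the log2 scale B exceeded A by 0.21 in the supernatants and 0.29 in the inputs. The log2 change between supernatant and input was 0.016 ± 0.14 (SE, limma adjusted p = 1.00), from the fit without the letter. The interval of that change ran from 0.775-fold to 1.32-fold. With the letter as a block it ran from 0.882-fold to 1.16-fold. ALKBH5, a nuclear demethylase of the same family, had intensities of 345 and 305 in supernatants A and B, against 328 and 343 in inputs A and B. Its ratios were 1.05 for letter A and 0.889 for letter B, with a log2 change of -0.05 ± 0.11 (SE, limma adjusted p = 1.00).

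Among the YTH readers, the pair ratios stood closer together in YTHDC1 and YTHDC2 than in YTHDF2 and YTHDF3. The supernatants of YTHDC2, however, differed more on the log2 scale than those of either YTHDF gene. YTHDC2, a reader with an RNA helicase domain that is needed for meiosis in mice, had intensities of 214 and 196 in supernatants A and B, against 174 and 169 in inputs A and B. Both supernatants lay above both inputs, with ratios of 1.23 for letter A and 1.16 for letter B. The log2 change of 0.26 ± 0.10 (SE) was the largest of the 8 and did not pass (limma adjusted p = 1.00). Its 95% interval, not adjusted for the number of genes, ran from 1.001-fold to 1.43-fold. It reached below 1 after quantile normalization of the columns (0.973-fold to 1.38-fold) and after recentring (0.953-fold to 1.36-fold), and its lower end was 0.831-fold to 0.970-fold when any 1 column was left out. With the letter as a block it ran from 1.04-fold to 1.37-fold. Of the 5904 genes as bright as the dimmest one-peak gene (bright genes), 97.5% had a lower change than YTHDC2. Among the 694 bright non-m1A genes, its own block, the share was 93.5%.

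YTHDC1, the nuclear reader linked to splicing and export, had intensities of 199 and 202 in supernatants A and B, against 195 and 189 in inputs A and B. The groups did not overlap, although the gap was small. The difference on the log2 scale was 0.06 ± 0.09 (SE, limma adjusted p = 1.00), the smallest SE of the 8, and -0.0033 after recentring, with a 95% interval as deposited from 0.892-fold to 1.22-fold.

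YTHDF2 and YTHDF3, both cytoplasmic, differed more between inputs than between groups. YTHDF2, which brings m6A-carrying RNA to the deadenylase complex for decay, had intensities of 496 and 483 in supernatants A and B, against 544 and 442 in inputs A and B. The inputs lay on either side of both supernatants, so the ratios were 0.911 for letter A and 1.09 for letter B, with a log2 change of -0.0033 ± 0.13 (SE, limma adjusted p = 1.00). YTHDF3, linked to translation and decay together with the other YTHDF proteins, had intensities of 328 and 311 in supernatants A and B, against 323 and 271 in inputs A and B. The supernatants overlapped with input A, and input B was the low column. The log2 change came to 0.11 ± 0.12 (SE, limma adjusted p = 1.00), and to -0.016 without input B.

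**Figure D2:**
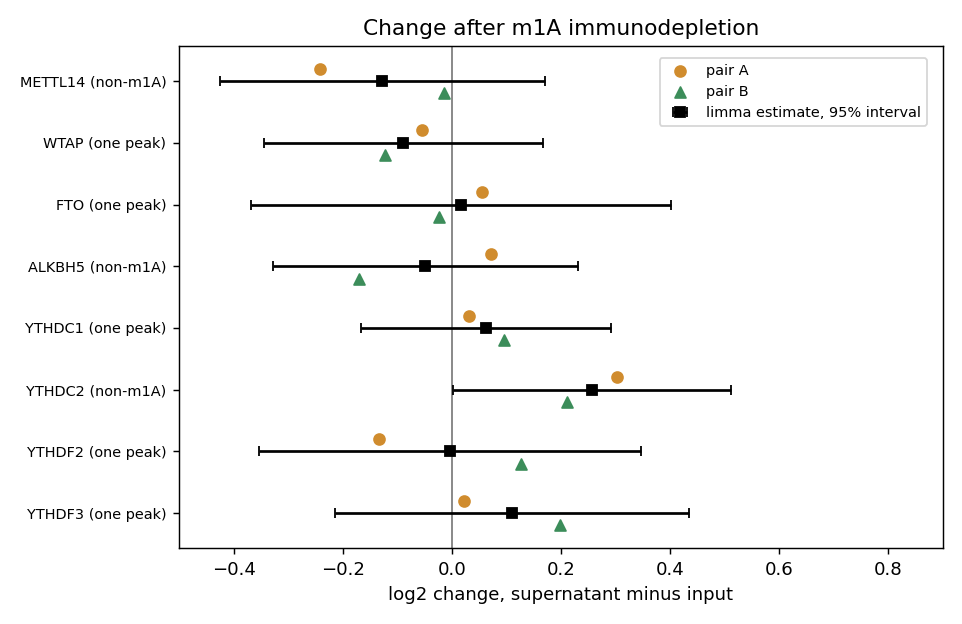
Log2 change of each transcript, supernatant minus input. Black squares are limma estimates with 95% intervals, circles are pair A and triangles pair B. The interval of YTHDC2 alone lies above 0, by a margin too small to be seen at this scale, and FTO, ALKBH5 and YTHDF2 have their pairs on opposite sides of 0.

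Groups that do not overlap were therefore seen in 3 of the 8, with YTHDC1 (in the intensities as deposited) and YTHDC2 higher and METTL14 lower in the supernatant. Over all genes, 16.6% were higher and 6.37% lower in this sense, so the counts of 2 and 1 are near the background. As deposited, both pair ratios were above 1 in YTHDC1, YTHDC2 and YTHDF3, where all genes gave 40.3%. Both were below 1 in METTL14 and WTAP, where all genes gave 14.4%. The remaining 3 changed sides between the pairs. In pair A, YTHDC1 and YTHDF3 had log2 ratios of 0.031 and 0.023, below the non-m1A median of 0.042.

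How far the pairs stood apart differed among the 8. The log2 ratios of the pairs differed by 0.26 in YTHDF2, 0.24 in ALKBH5 and 0.23 in METTL14, more than in 86.7%, 83.8% and 81.6% of the bright genes. In YTHDF3 they differed by 0.18, and in the other 4 by 0.065 to 0.092, less than the median of 0.11 over bright genes. In 5 of the 8 the inputs A and B differed by more than supernatant and input did. These were METTL14, FTO, ALKBH5, YTHDF2 and YTHDF3. The same held for 4959 of the 6434 genes.

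**Figure D3:**
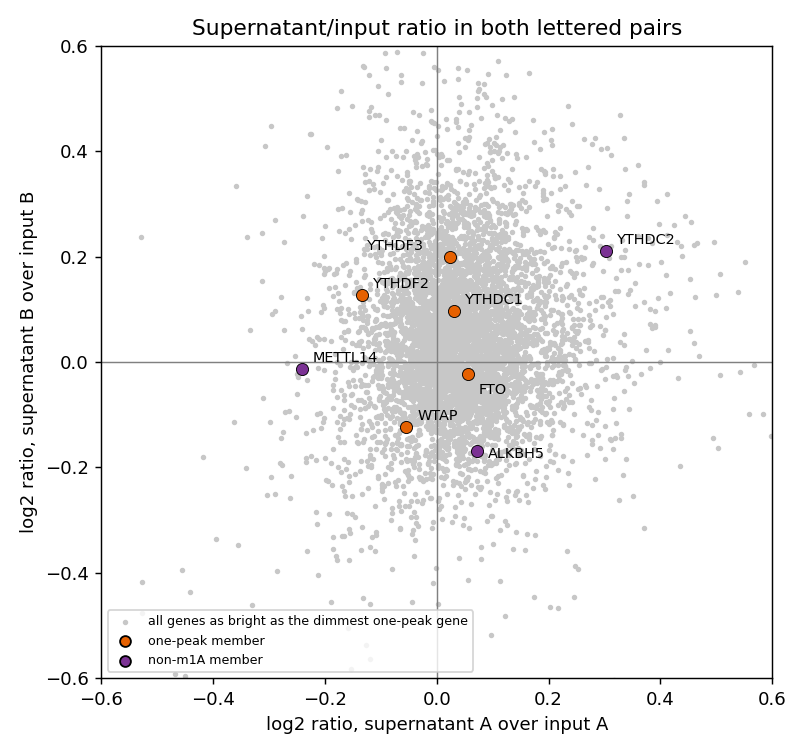
Log2 supernatant/input ratio in pair A (x axis) and pair B (y axis), with the 5904 bright genes in grey, one-peak members in orange and non-m1A members in purple; 36 genes lie outside the axes. YTHDC2 lies to the upper right of most genes, METTL14 lies far to the left along the pair A axis but close to 0 in pair B, and the others lie within the cloud.

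The study's own readout is the methylated fraction, 1 minus the supernatant/input ratio after division by a constant. In the authors' deposited table, the fraction was 0.27 for WTAP, 0.22 for FTO and for YTHDF2, 0.19 for YTHDC1 and 0.16 for YTHDF3. Against the 5210 one-peak genes, whose median in the authors' deposited table was 0.21 (quartiles 0.17 and 0.23), WTAP exceeded 91.7% and YTHDF3 17.4%. For the non-m1A members, which get no fraction, the authors' deposited table gives mean ratios of 0.918 for METTL14, 0.971 for ALKBH5 and 1.195 for YTHDC2. From the intensities, all 8 deposited ratios were recovered within 0.006, with a constant of 1.29, the mean deposited ratio of the non-m1A genes. Recomputed, the ratios of those genes had a median of 1.05 and a maximum of 52.6. Among the bright ones the mean was 1.05 and the maximum 1.54, so the constant rests on dim genes with very high ratios.

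The order of the members by fraction differed between the pairs. With the same constant, the fraction of YTHDF2 was 0.295 by pair A alone and 0.154 by pair B alone, and that of YTHDF3 was 0.213 and 0.112. WTAP had 0.255 and 0.289, FTO 0.195 and 0.238, and YTHDC1 0.209 and 0.172. In pair A YTHDF2 was thus the highest of the 5, and in pair B WTAP was.

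The formula was also applied to the non-m1A members, an addition made after seeing the data. METTL14 then reached 0.289 (0.345 by pair A alone and 0.233 by pair B alone), above the 0.272 of WTAP and every other one-peak member. ALKBH5 had 0.249, above all one-peak members except WTAP, and YTHDC2 had 0.0747, below all 5. The median over the 694 bright non-m1A genes was 0.191 by this formula, against 0.205 over the one-peak genes. At or above METTL14 were 34 of the 694 (4.90%) and 188 of the 5210 one-peak genes (3.61%). With this constant any mean ratio below 1.29 gives a positive fraction, and all 8 members were below it. The sign of the fraction therefore could not separate one-peak from non-m1A members.

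Without the constant, the fraction was 0.0594 in WTAP and below 0 in the other 4 one-peak members: -0.0018 in YTHDF2, -0.012 in FTO, -0.0454 in YTHDC1 and -0.0819 in YTHDF3. Among the non-m1A members it was 0.0816 in METTL14, 0.0295 in ALKBH5 and -0.195 in YTHDC2. WTAP and METTL14 were the only members above 0 in both pairs, with 0.0372 and 0.0816 in pairs A and B of WTAP and 0.154 and 0.0094 in those of METTL14. With the median non-m1A ratio (1.05) as divisor, FTO (0.0126 and 0.0656) and ALKBH5 (0.0012 and 0.155) also lay above 0 in both pairs.

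**Figure D4:**
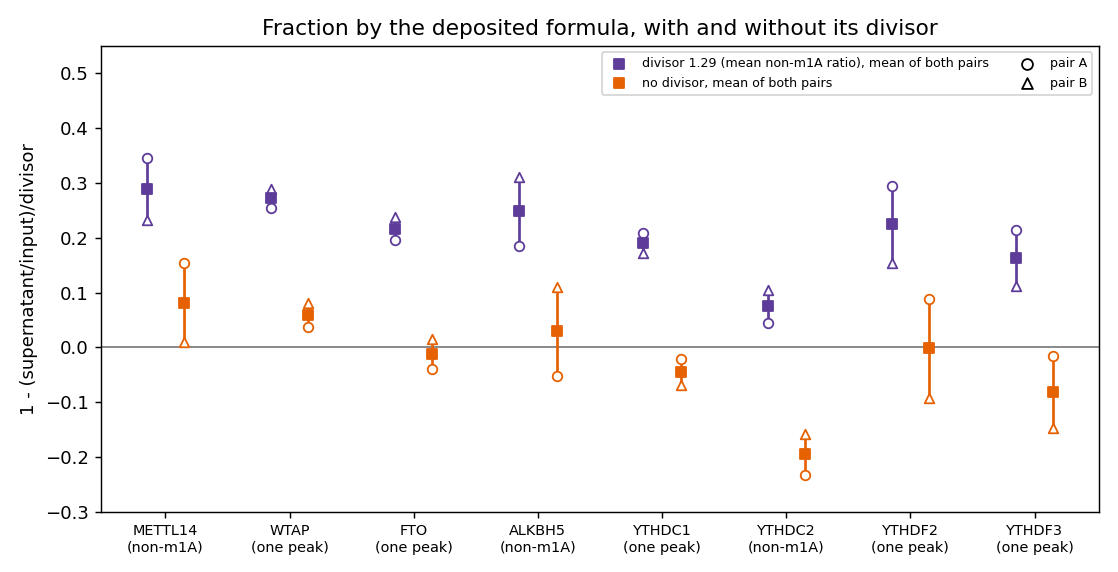
Fraction by the deposited formula for each transcript, with the divisor of 1.29 (purple) and without a divisor (orange); squares are the mean of both pairs, open circles pair A and open triangles pair B, and for non-m1A genes the formula was applied here. All 8 lie above 0 with the divisor, and without it only WTAP and METTL14 have both pairs above 0.

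The wider m6A pathway was covered by a list of 31 genes, of which 19 were measured, the 8 members among them. They included 6 of 11 writer genes, both erasers, 4 of 5 YTH readers, 6 of 12 other proposed readers and CNOT1, the scaffold of the deadenylase complex to which YTHDF2 binds. METTL3 and YTHDF1 were not in the table. None of the 19 passed the test, which called 0.0155% of all genes, so this count says nothing particular to the list. The median log2 change was 0.05 against 0.04 over all genes, with 15 above 0 and 4 below, where 4367 of all 6434 genes were above 0. The groups did not overlap in 8 of the 19 that were higher in the supernatant and in 1 that was lower, where all genes gave 16.6% and 6.37%; the list was chosen with earlier results known, and its counts were not tested against other genes.

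METTL14 had the lowest moderated statistic of this list and CNOT1 the highest. CNOT1, a one-peak gene, had intensities of 80.6 and 74.2 in supernatants A and B, against 63.7 and 61.2 in inputs A and B. Both supernatants were above both inputs, the log2 change was 0.31 ± 0.10 (SE, limma adjusted p = 1.00), and the fraction in the authors' deposited table was 0.04.

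Of the m1A writers and erasers, 7 of 8 listed genes were measured and none passed, with a median log2 change of 0.05. Here and in the lists that follow, a count of 0 is likewise to be read against the 0.0155% of all genes called. The lowest and highest moderated statistics of that list belonged to TRMT6, a subunit of the tRNA m1A writer, at -0.07 ± 0.11, and the eraser ALKBH3 at 0.12 ± 0.09 (SE). The AlkB family had 6 of 9 genes in the table, with a median of 0.04 and none passing. ALKBH5 had its lowest statistic and ALKBH3 its highest, and FTO lay between ALKBH4 at 0.0018 and ALKBH7 at 0.07. Of the 17 measured genes named METTL, none passed and the median was 0.05. METTL2A, a tRNA methyltransferase, came lowest by the statistic at -0.12 ± 0.10, next to METTL14, and METTL15, a mitochondrial ribosomal RNA methyltransferase, came highest at 0.42 ± 0.22 (SE). METTL15 had intensities of 48.7 and 46.6 in supernatants A and B, against 44.0 and 28.7 in inputs A and B.

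For each member, the gene whose 4 log2 intensities followed the most similar course was sought among genes of like brightness, by the root mean square difference after centring each gene on its own mean. Over these 4 columns such matches are common and are given as a description. YTHDC2 was closest to RASA1, a GTPase-activating protein gene, with a difference of 0.0174, and 17 of 2613 candidates came within 0.05. METTL14 was closest to the chemokine gene CCL22, with a difference of 0.0337, and 23 of 2018 came within 0.05. YTHDC1 was closest to CARKD, with a difference of 0.0033, and 417 of 2580 came within 0.05. The closest genes were SMUG1 for WTAP, PDK3 for FTO, CYB561D2 for ALKBH5, E2F3 for YTHDF2 and KIAA1279 for YTHDF3.

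Promoter base composition did not separate the one-peak from the non-m1A members. In RefSeq windows of 300 bases around the gene start (GRCh38.p14), found for 7 of the 8, the GC content was 71.8% in WTAP (mean of 2 windows), 66.5% in YTHDF2 (mean of 2 windows), 60.0% in FTO and 58.3% in YTHDC1. It was 71.0% in ALKBH5, 58.3% in YTHDC2 and 55.7% in METTL14. Medians were 65.0% over the 4330 matched one-peak genes and 62.7% over the 981 matched non-m1A genes, so the members of both blocks lay on either side of both medians.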

How the data were processed

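The authors deposited 2 tables. The gene table holds intensities on a linear scale, a ratio per gene and, for one-peak genes, a methylated fraction, per the file headers. The steps behind these intensities are not stated in the labels or headers. The second, unnamed by gene, gives log2 values for 49395 probe sets. RMA is named as the authors' tool, with no version, per the submitters' processing notes. The log2 values were used only to look for the members. Under any assignment of letters to replicate numbers, the members' 4 values came no closer than 3.41% (YTHDC2) to those of any probe set. No rescaling was done, so this cannot show whether the 2 sets of values come from the same arrays.

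Log2 of the deposited intensities of all 6434 genes entered an unpaired linear model in limma 3.58.1 under R 4.3.3 (lmFit, then eBayes, no filter), with Benjamini-Hochberg adjustment over all genes and 95% intervals from the same fit. Python 3.11.15, NumPy 2.4.6, pandas 2.3.3 and matplotlib 3.10.9 did the rest. The script was run on simulated data whose columns varied independently and whose changes were larger than any member's. That run does not show how well changes of the members' size are found. Moderated tests had 4.51 degrees of freedom, and the smallest two-sided p of an exact permutation test at this size is 0.333. The number of arrays limits the precision.

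The members and gene lists were chosen with earlier results of these data known. Named are all members, the lowest and highest moderated statistic of each list, and the closest gene to each member among those within 1 of its mean log2 intensity. Older symbols were matched through the RefSeq gene table, which gave promoter windows to 83.1% of one-peak and 80.1% of non-m1A genes. Alternatives were the letter as a block, other scalings, an offset of 32, bright genes only, a trended prior, each column left out and other divisors. A marker of the hepatocyte list is not reported here.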

Additional observations from a re-analysis of the deposited data

How the results depend on the processing

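No member, and no gene of the 4 lists, passed under any alternative run; the lowest adjusted p of a member was 0.441, for YTHDC2 with the letter as a replicate block among bright genes, a combination chosen after seeing the data. The labels do not say that letters pair samples, but the members' deposited ratios were recovered from same-lettered columns. Deviations of same-lettered columns correlated at 0.451 over all genes and 0.698 over bright genes. The unpaired fit, which gave the members' SEs, does not use this pairing. With the letter as a block, the intervals of all 8 members were narrower. With the replicate block alone, 0 members passed and YTHDC2 had an adjusted p of 0.800. Of 88 alternative values of the 8 log2 changes, 79 kept their direction and 9 did not. The block, bright genes only, both together and the trended prior cannot move the log2 change, so their values kept direction by construction. All 9 reversals came from rescaling or from leaving out a column. FTO turned to -0.024 after quantile normalization and, with YTHDC1 at -0.0033, to -0.051 after recentring on the non-m1A medians. Those scalings moved the median of all genes from 0.04 to 0.00038 and -0.026. Leaving out 1 column gave log2 changes of -0.13 to 0.16 in FTO, -0.14 to 0.0404 in ALKBH5, -0.15 to 0.15 in YTHDF2, -0.016 to 0.24 in YTHDF3, -0.24 to -0.017 in METTL14, -0.15 to -0.026 in WTAP, 0.04 to 0.09 in YTHDC1 and 0.19 to 0.32 in YTHDC2. The median fraction of the 5 one-peak members, 0.22 as deposited, was -0.012 without a divisor, 0.0391 with the median non-m1A ratio (1.05) and 0.0376 with the mean ratio of bright non-m1A genes, because a smaller divisor lowers every fraction; it was 0.172 to 0.213 from single pairs. Over all genes, 1 was called higher and 0 lower, against 32 and 3 without input A, 11 and 1 without input B, 0 and 4 with the block among bright genes, and 0 and 0 with the offset of 32, bright genes only or a trended prior.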
